A study of Mus musculus with 4 samples.

Results

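The 37 genes described here encode the extracellular matrix and the basement membrane: collagens, laminin chains, perlecan and nidogens, proteins of elastic fibres, small matrix proteins and proteoglycans, and inhibitors of metalloproteinases. They were taken as a fixed list of symbols, chosen with earlier results of these data known. All 37 were found among the 30561 gene names shared by 4 single-cell RNA matrices. The lung matrices name genes by Ensembl identifier, which was mapped to symbols. Cells with at least 500 unique molecular identifiers (UMIs, the counted molecules) and at most 15% mitochondrial UMIs were kept.

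The study compared endothelial cells with and without the transcription factor Oct4 (gene Pou5f1) in the aorta and in the left lung lobes. There is 1 library for each of 4 groups: Oct4 wild-type aorta (EC-Oct4+/+, pooled from 2 mice), Oct4 knockout aorta (EC-Oct4Δ/Δ, pooled from 3 mice), and wild-type and knockout lung from animals described in the same way. All groups came from female Apoe knockout mice of strain C57/B6J that carry an endothelial lineage trace and had eaten a Western diet for 5 weeks, so the wild-type cells are also from hyperlipidaemic animals; their age is not stated in the labels. The cells were sorted as eYFP+, the gate being set on Cdh5-negative littermates, and every buffer held 1 µg/mL actinomycin D, which stops transcription during digestion. Cdh5 is expressed in the endothelium of arteries, veins, capillaries and lymphatics alike, and the aorta was taken whole from arch to abdomen, so each library mixes vessel types.

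Endothelial cells sit on a basement membrane made of a network of collagen IV and a network of laminin trimers, which nidogens and the heparan sulphate proteoglycan perlecan tie together. Large elastic arteries add an elastic layer beneath the endothelium, in which elastin is deposited on microfibrils with the help of fibulins, emilins and latent TGF-beta binding proteins. Capillary walls, by contrast, are little more than an endothelial cell, a pericyte and the membrane they share.

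Sequences at the starts of 4 members are shown, chosen for the 3 patterns between the beds described below: higher in the aorta, shared and higher in the lung. Bgn is the member furthest towards the aorta among those with a sequence, judged by the interval bound nearest to 1, Timp3 is the shared member with the most UMIs, and Col4a1 and Col4a2 are the pair higher in the lung. RefSeq start sites on GRCm38.p6 were available for 26 of the 37 members. The Bgn stretch is chrX:73483351-73483600 on the plus strand, the 250 bases before the start of transcription, and the Timp3 stretch is chr10:86300162-86300371 on the plus strand, 210 bases that end before the first annotated exon base. Col4a1 and Col4a2 lie head to head on chromosome 8, with Col4a1 starting at 11312826 on the minus strand and Col4a2 at 11312805 on the plus strand, and the 22 bases between these starts, chr8:11312805-11312826, are given on the plus strand. They are upstream of neither gene, since all 22 lie within exons of both. Capitals mark matches to GGGCGG on either strand.
Bgn: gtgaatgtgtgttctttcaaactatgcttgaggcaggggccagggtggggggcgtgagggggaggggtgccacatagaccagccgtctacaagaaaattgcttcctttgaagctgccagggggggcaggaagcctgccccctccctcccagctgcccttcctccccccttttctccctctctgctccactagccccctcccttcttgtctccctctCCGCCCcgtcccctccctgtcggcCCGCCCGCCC
Timp3: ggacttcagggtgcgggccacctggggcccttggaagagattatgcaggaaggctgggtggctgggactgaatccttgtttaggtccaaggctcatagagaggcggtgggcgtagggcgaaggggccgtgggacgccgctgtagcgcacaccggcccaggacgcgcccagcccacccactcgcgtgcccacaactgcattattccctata
Col4a1 and Col4a2: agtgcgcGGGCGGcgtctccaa
The Bgn stretch holds 3 matches, beginning 34, 10 and 6 bases before the start, of which the last pair overlap, and its GC content is 64.4%. The Timp3 stretch holds 0, and the collagen IV stretch holds 1, at its bases 8 to 13. In the 250 bases before the start, searched on both strands, GGGCGG was present for 19 of the 26 members and 32.7% of 32851 windows, CCAAT for 11 members and 33.8% of windows, TATAAA for 1 member and 12.4% of windows, and the AP-1 motif TGACTCA for 0 members and 4.46% of windows. These matches describe the letters only.

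The 4 libraries held 449, 1623, 800 and 529 barcodes (aorta wild-type and knockout, then lung wild-type and knockout) with 1034161, 4483756, 1506574 and 1052504 UMIs, and 404, 1569, 775 and 508 cells were kept at medians of 2090, 2325, 1662 and 1732 UMIs. Levels below are UMIs summed over blood endothelial cells and scaled to a common sum of UMIs (CPM, the usual depth-scaled count), from 355, 1333, 703 and 469 cells. Where values are listed without a group, the aorta precedes the lung and wild-type precedes knockout. The 10 endothelial markers were all detected in every library, at 7954 to 14169 CPM in sum. Pou5f1 had 0 or 1 UMI in each library, so its counts do not check the genotype labels. Pairs of libraries shared 0 to 2 barcodes. Epithelial markers stood at 453 CPM in the knockout lung against 55.9 CPM in the wild-type lung, with 4 of 9 at 0. With 1 library per group there is no replicate check and no test: intervals are exact 95% intervals that cover counting error only, and tissue or genotype cannot be told apart from library.

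Aortic endothelium carried far more matrix RNA than lung endothelium. The 37 genes took 1.87% of UMIs in the wild-type and 2.13% in the knockout aorta, but 0.349% and 0.370% in the lung libraries. Mgp alone made up a large part of the aortic sums, at 7374 CPM in wild-type and 10560 CPM in knockout cells. With a mean of at least 50 CPM over the libraries and at least 30 UMIs, 23 members could be compared and 14 could not. Of the 23, 14 were at least 2-fold higher in the aorta in both genotypes, against 7.23% of 3264 genes that passed the same filter. Since the list was chosen with earlier results of these data known, the shares over all genes are a description and no independent support. A further 2, the collagen IV chains, were at least 2-fold higher in the lung, where the share over all genes was 13.9%, and 4 were shared, that is under 2-fold in both genotypes (70.7% of all genes). The remaining 3, Lamb2, Sparcl1 and Emilin1, crossed 2-fold in 1 genotype only. The median log2 ratio of aorta to lung over the 23 was 2.58 in wild-type and 3.30 in knockout cells, beside -0.11 and -0.10 over all genes that passed.

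Markers of matrix-producing cells moved with tissue. Together the 8 fibroblast markers held 610 (wild-type) and 1470 CPM (knockout) in the aorta but 14.3 and 4.51 CPM in the lung. Lum and Dpt were at 0 in the wild-type aorta, Dpt in the knockout aorta, Lum, Dpt and Clec3b in the wild-type lung, and 6 of the 8 in the knockout lung. The microfibril gene Mfap5, on that list, made up 270 of the 610 CPM of the wild-type aorta. Smooth muscle markers summed to 534, 767, 232 and 122 CPM, with Actg2 at 0 in 3 of the libraries. When cells with 2 or more UMIs of markers of other cell types were left out, 171 of 355 wild-type and 534 of 1333 knockout aortic cells remained. In the lung 637 of 703 wild-type and 308 of 469 knockout cells did, so the cut took out many cells named as endothelial. Among the 21 members that then passed, 11 were still at least 2-fold higher in the aorta and the same 2 in the lung, beside 6.75% and 11.6% of all genes. Their median log2 ratio of aorta to lung was then lower than in the main values, at 1.95 in wild-type and 2.08 in knockout cells. Leaving out aortic cluster 3, whose leading genes include Tagln and Krt18, markers of smooth muscle and epithelium, left all 14 and both collagen IV calls in place. Cluster 10 held more fibroblast and smooth muscle markers, at 3086 and 2142 CPM, than cluster 3, at 757 and 1740 CPM. Without aortic clusters 8 and 10, 21 members passed the filter, with median log2 ratios of 2.28 in wild-type and 2.22 in knockout cells.

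**Figure D1:**
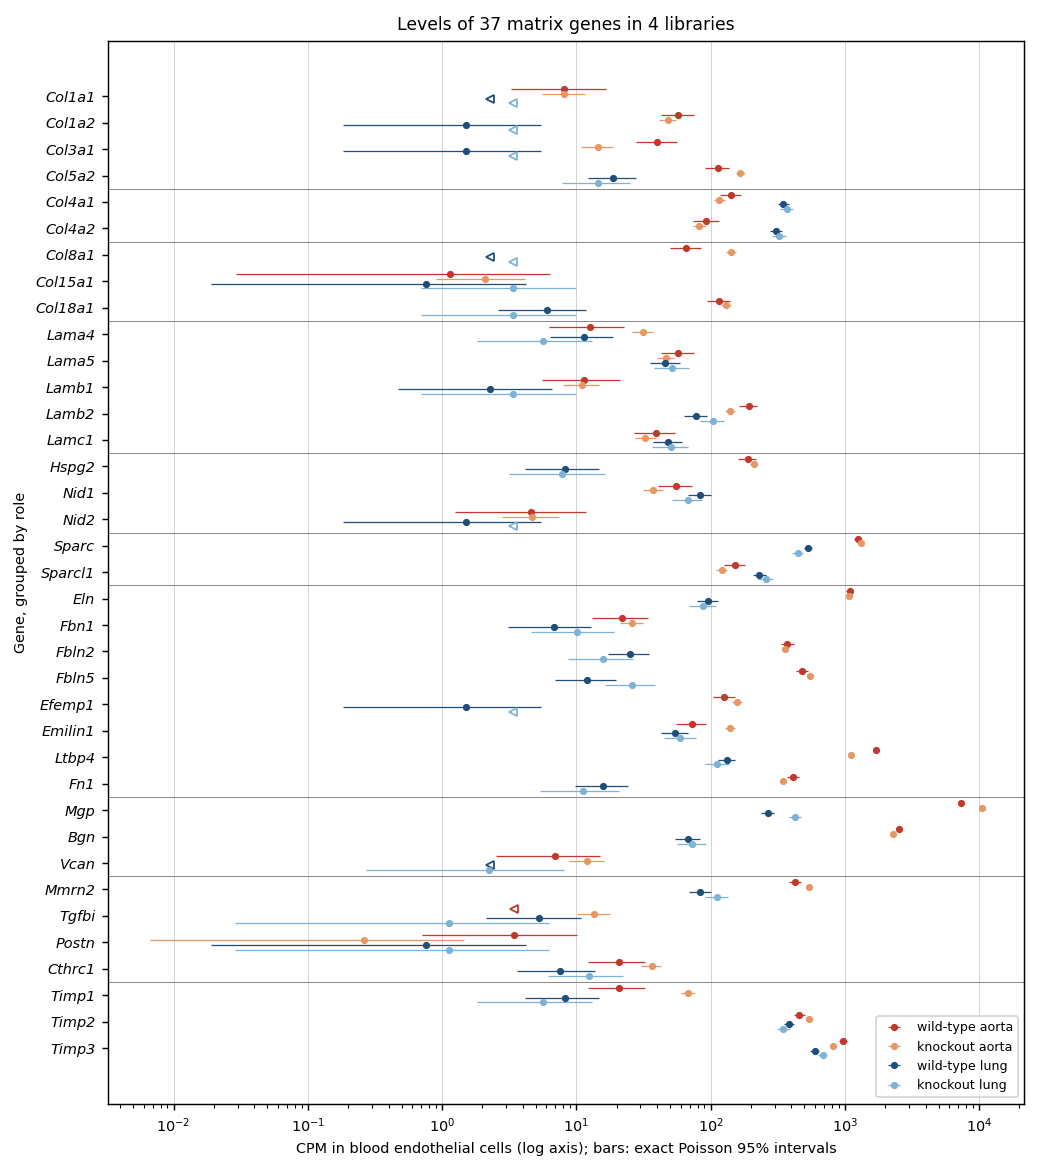
Levels of the 37 genes in blood endothelial cells of each library, in CPM on a log axis and grouped by role, with exact Poisson 95% intervals; open triangles mark 0 UMIs, drawn at the level of 3 counts. Bgn lies at 2531 and 2275 CPM in the aortic libraries and at 68.0 and 73.2 CPM in the lung libraries, while Timp3 lies between 597 and 977 CPM in all 4.

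Of the 4 fibrillar collagen chains, which build the tensile fibres of the vessel wall, 1 passed the filter, Col5a2, and it was higher in the aorta. Col1a1, Col1a2 and Col3a1 lay below the filter. Col5a2, a collagen V chain that sets fibril diameter, stood at 113 (wild-type) and 166 CPM (knockout) in the aorta, against 18.9 and 14.6 CPM in the lung, so both aortic libraries lay above both lung libraries. Its aorta to lung ratio was 5.97 (95% interval 3.82 to 9.67) in wild-type and 11.4 (6.59 to 21.5) in knockout cells. Col1a2, an alpha chain of collagen I, had 57.5 and 48.2 CPM in the aorta and 1.51 and 0 CPM in the lung, where it rested on 2 and 0 UMIs. Col3a1, the collagen III chain, had 40.3 and 14.4 CPM in the aorta and 2 and 0 UMIs in the lung, and Col1a1, the partner of Col1a2, had 7 and 31 UMIs in the aorta and 0 in the lung. In fibroblast-like cells of the aorta, 13 cells, Col1a1 and Col3a1 reached 3101 and 3393 CPM, and an exon of Col3a1 overlaps the same-strand gene Gm47302.

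Collagen IV ran the other way. Col4a1 (chr8:11198423-11312826) and Col4a2 (chr8:11312805-11449287) encode the chains of the collagen IV trimer found in nearly all basement membranes. Col4a1 stood at 143 (wild-type) and 116 CPM (knockout) in the aorta, against 348 and 368 CPM in the lung. Col4a2 stood at 93.2 and 82.8 CPM in the aorta and at 307 and 323 CPM in the lung. Neither gene's libraries overlapped between tissues. Col4a1 was 2.44-fold higher in the lung (interval 2.00 to 3.00) in wild-type and 3.17-fold higher (2.74 to 3.66) in knockout cells, and Col4a2 was 3.30-fold (2.59 to 4.24) and 3.91-fold (3.32 to 4.60) higher. The genes have overlapping first exons on opposite strands, and the labels do not say whether counting used strand.

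Of the 3 other collagens of the vessel wall, Col8a1 and Col18a1 passed the filter and both were higher in the aorta. Col8a1 (chr16:57624258-57754737), a short-chain collagen of the subendothelial matrix, was at 65.6 and 143 CPM in the aorta and had 0 UMIs in both lung libraries, which makes it at least 29.0-fold and at least 42.4-fold higher against a floor of 3 counts per library. Col18a1, the basement membrane collagen from which endostatin is cut, was at 115 and 131 CPM in the aorta and at 6.04 and 3.38 CPM in the lung, 8 and 3 UMIs. Its ratio was 19.0 (9.30 to 45.3) in wild-type and 38.8 (13.2 to 189) in knockout cells. Col15a1, its close relative, had 1, 8, 1 and 3 UMIs and could not be compared.

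Laminin chains were present in both beds. Lama5, the alpha chain of the laminin that endothelium lays down after development, stood at 57.5 and 46.4 CPM in the aorta and at 46.1 and 51.8 CPM in the lung, wild-type first, and the libraries of the beds overlapped. Its ratios were 1.25 (0.842 to 1.85) and 0.895 (0.644 to 1.27). Lamb2, a beta chain of vessel laminins, had 192 and 140 CPM in the aorta and 77.8 and 104 CPM in the lung, with ratios of 2.47 (1.92 to 3.19) and 1.35 (1.08 to 1.71), so it passed 2-fold in wild-type cells only. Lamc1, the gamma chain common to most laminins, had 39.1, 32.7, 48.3 and 50.7 CPM, a ratio of 0.809 (0.518 to 1.25) in wild-type and 0.646 (0.456 to 0.930) in knockout cells, and lay below the filter. Lama4, the other endothelial alpha chain, ranged from 5.63 to 31.4 CPM and Lamb1, the other beta chain, from 2.27 to 11.5 CPM, both also below the filter.

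The linkers of the networks divided. Hspg2 (chr4:137468769-137570630), which encodes perlecan, was at 189 and 210 CPM in the aorta and at 8.31 and 7.88 CPM in the lung, 22.7-fold (12.4 to 46.4) and 26.6-fold (12.9 to 66.4) higher in the aorta. Nid1, nidogen-1, was at 55.2 and 37.5 CPM in the aorta and at 83.1 and 67.6 CPM in the lung, where both libraries were the higher ones by less than 2-fold: the aorta to lung ratios were 0.665 (0.463 to 0.941) and 0.554 (0.407 to 0.762). Nid2, nidogen-2, had 4, 18, 2 and 0 UMIs.

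Sparc, a collagen-binding matricellular protein needed for collagen IV assembly, was at 1252 and 1327 CPM in the aorta and at 532 and 446 CPM in the lung. It was 2.35-fold (2.14 to 2.59) and 2.98-fold (2.69 to 3.31) higher in the aorta, while the collagen IV chains were lower there. Its relative Sparcl1 was at 152 and 121 CPM in the aorta and at 231 and 258 CPM in the lung, with ratios of 0.657 (0.532 to 0.809) and 0.469 (0.400 to 0.552), past 2-fold in knockout cells only.

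Of the 7 elastic fibre genes, 5 passed the filter and were at least 2-fold higher in the aorta in both genotypes, beside 7.23% of all genes. Eln (chr5:134702593-134747323), tropoelastin, stood at 1088 and 1073 CPM in the aorta and at 95.9 and 87.9 CPM in the lung, ratios of 11.3 (9.42 to 13.8) and 12.2 (9.76 to 15.5). Ltbp4 (chr7:27305136-27337692), which guides elastin onto microfibrils and binds latent TGF-beta, was at 1699 and 1108 CPM in the aorta and at 132 and 113 CPM in the lung, ratios of 12.9 (11.0 to 15.1) and 9.84 (8.07 to 12.1). Fbln5, the fibulin that tethers elastin to cells, was at 482 and 549 CPM in the aorta and at 12.1 and 25.9 CPM in the lung. All of these had aortic libraries far above the lung ones. Fbln2, which binds laminin and fibrillin networks, was at 374 and 357 CPM against 24.9 and 15.8 CPM. Efemp1, fibulin-3, was at 127 and 157 CPM against 1.51 and 0 CPM, 2 UMIs and none, which is 83.8-fold (22.7 to 701) in wild-type and at least 46.5-fold in knockout cells. Emilin1, which restrains TGF-beta processing, was at 72.5 and 139 CPM in the aorta and at 54.4 and 59.7 CPM in the lung, so its ratio was 1.33 (0.935 to 1.90) in wild-type and 2.33 (1.75 to 3.15) in knockout cells. Fbn1, fibrillin-1, lay below the filter at 21.9, 25.9, 6.80 and 10.1 CPM. Its ratios also passed 2-fold, at 3.22 (1.39 to 8.07) in wild-type and 2.56 (1.29 to 5.76) in knockout cells.

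Fn1, fibronectin, which forms the provisional matrix on which other components assemble, was at 411 and 348 CPM in the aorta and at 15.9 and 11.3 CPM in the lung, 25.9-fold (16.7 to 42.4) and 30.9-fold (16.8 to 64.6) apart. In the wild-type lung 71.4% of its 21 UMIs came from 1 cell.

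Among small matrix proteins, Mgp and Bgn separated the beds. Mgp (chr6:136872435-136875823), the matrix Gla protein that blocks arterial calcification and binds BMPs, stood at 7374 and 10560 CPM in the aorta and at 267 and 429 CPM in the lung. Bgn (chrX:73483602-73495933), the proteoglycan biglycan, stood at 2531 and 2275 CPM in the aorta and at 68.0 and 73.2 CPM in the lung. Both genes were separated by tissue in both genotypes, Mgp by 27.7-fold (24.8 to 30.9) and 24.6-fold (22.2 to 27.3) and Bgn by 37.2-fold (30.2 to 46.5) and 31.1-fold (24.4 to 40.3). Vcan, the large proteoglycan versican, had 6, 46, 0 and 2 UMIs.

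Among adhesive proteins, Mmrn2, an endothelial ligand of CD93 and CLEC14A, was at 429 and 539 CPM in the aorta and at 83.8 and 112 CPM in the lung, ratios of 5.12 (4.13 to 6.39) and 4.84 (3.95 to 5.98). Cthrc1, a secreted protein of remodelling arteries, was at 20.7, 36.4, 7.55 and 12.4 CPM. Tgfbi, an integrin ligand induced by TGF-beta, had 0, 52, 7 and 1 UMIs, and Postn, periostin, had 3, 1, 1 and 1.

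Of the inhibitors of metalloproteinases, Timp2 and Timp3 were shared between the beds. Timp3 (chr10:86300372-86349506), which is held in the matrix, stood at 977, 821, 597 and 685 CPM and was 1.64-fold (1.48 to 1.81) and 1.20-fold (1.10 to 1.31) higher in the aorta. Timp2, which also takes part in the activation of pro-MMP2, stood at 459, 538, 383 and 348 CPM, ratios of 1.20 (1.05 to 1.37) and 1.55 (1.37 to 1.75). For both, each aortic library lay above each lung library by less than 2-fold. Timp1 stood at 20.7 and 68.4 CPM in the aorta and at 8.31 and 5.63 CPM in the lung, below the filter. An antisense partner, Syn3, overlaps an exon of Timp3.

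**Figure D2:**
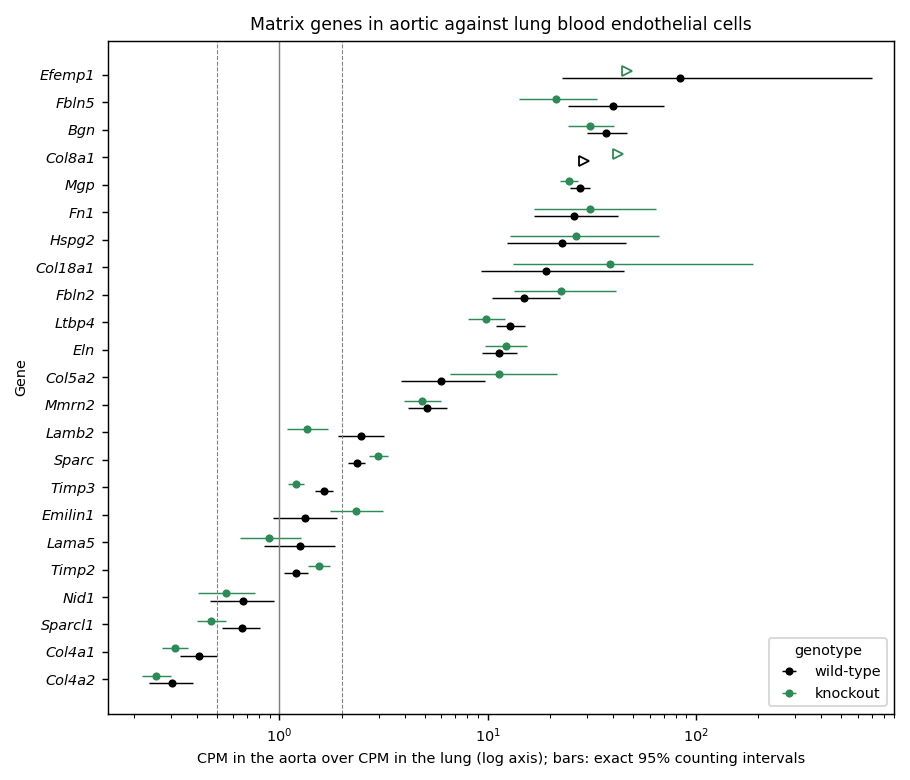
Ratio of CPM in the aorta to CPM in the lung for the 23 genes that passed the filter, on a log axis, by genotype, with exact 95% counting intervals; dashed lines mark 2-fold and open triangles are lower bounds against 0 UMIs. Col4a1 and Col4a2 lie left of the lower dashed line in both genotypes, and 14 genes lie right of the upper one in both.

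Matrix genes then separated vessel types within each bed. Cells were clustered within a tissue from variable genes that excluded the members and the other matrix lists, so no gene of these lists helped to form a cluster, and levels per cluster are descriptions. The markers used for naming do include some genes of the other lists, such as Mmrn1, Vwf, Egfl7 and Dcn. In the aorta clusters 2, 4, 6 and 7 were arterial-like, capillary-like, venous-like and lymphatic-like from their markers, and clusters 0, 1, 3, 5, 8 and 10 had no vessel name. In the lung, clusters 1, 4, 5 and 6 were capillary-like (led by stress genes, MHC class II genes, Lpin2 and interferon genes), cluster 3 aerocyte-like, that is like the gas-exchange capillary cell, and clusters 2, 7 and 0 venous-like, arterial-like and lymphatic-like. The names are not exclusive. Among best-detected markers, mean detection in lung cluster 7 was 46.4% for arterial and 50.1% for capillary ones. Unnamed aortic cluster 10 had 53.1% for arterial and 73.5% for venous ones, beside 56.9% arterial in cluster 2 and 62.0% venous in cluster 6. The members took 2.65% of UMIs in aortic arterial-like, 1.15% in venous-like and 0.689% in capillary-like cells, and 0.852%, 0.562% and 0.268% to 0.331% in the lung classes of those names.

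Aortic capillary-like cells stood apart from the rest of the aorta. Mgp was at 84.2 CPM in these 163 cells and at 6073 to 19132 CPM in the other blood endothelial clusters, Bgn at 8.42 against 1199 to 3107 CPM, and Eln at 54.8 against 206 to 1987 CPM. For all 3 the capillary-like level lay below every other blood endothelial cluster of the aorta. Macrophage-like cells of the aorta, 14 cells that should lack both genes, carried 386 CPM (239 to 591) of Mgp and 534 CPM (357 to 766) of Bgn at a median of 3677 UMIs per cell, against 1265 in capillary-like cells. Both capillary-like levels lay below these and are not read as expression. The upper bound of Bgn in capillary-like cells, 30.4 CPM, lay far under the macrophage-like level, so these classes did not carry Bgn at a common level, and its source in the macrophage-like cells was not tested. Timp2 was at 8.42 CPM, 2 UMIs, against 408 to 660 CPM in the other clusters, and Efemp1, Col5a2 and Timp1 had 1 UMI each. Sparcl1 went the opposite way, at 1226 CPM against at most 308 CPM, as did Col4a1 and Col4a2, at 345 and 400 CPM against at most 167 and 113 CPM. Hspg2 (215 CPM) and Fbln2 (232 CPM) lay within the range of the other clusters. Fibroblast markers summed to 29.5 CPM in capillary-like cells and to 236 to 3086 CPM elsewhere in aortic blood endothelium, and their part in these gaps was not tested.

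Arterial-like cells and cluster 10 held the highest Mgp of the aorta, at 14237 and 19132 CPM. Cluster 10, led by Tubb3 and Serpina3n, also had the highest cluster levels of Col8a1 (402 CPM), Col5a2 (313 CPM), Col18a1 (343 CPM), Emilin1 (229 CPM), Fbln5 (983 CPM) and Timp1 (183 CPM). Leading genes were ranked over all genes, members included. Those of cluster 10 include Col8a1 and Timp1, so the levels of this pair restate that ranking. The fibroblast markers of cluster 10 summed to 3086 CPM, its smooth muscle markers to 2142 CPM, and its median was 5017 UMIs per cell. The part of these in the levels was not tested. Cluster 1, led by Cyp1b1 and Stab1, was highest for Ltbp4 (2274 CPM), Lamb2 (329 CPM) and Hspg2 (300 CPM), and cluster 3, led by Thbs1 and Ccn2, for Eln (1987 CPM) and Fn1 (812 CPM). Lamb2 and Ltbp4 are themselves among the leading genes of cluster 1, and Fn1 among those of cluster 3. Venous-like cells had little of several genes, with Fn1 at 16.1 CPM, Col18a1 at 16.1 CPM and Col4a1 at 12.1 CPM, in each case 6 or 8 UMIs.

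In the lung Mgp, Bgn and Ltbp4 were higher in arterial-like and venous-like cells than in the capillary types. Mgp was at 3756 CPM in arterial-like and 1383 CPM in venous-like cells and at 0 to 10.9 CPM in capillary-like and aerocyte-like clusters. The latter are at or below the 14.1 CPM of lung macrophage-like cells. Bgn was at 399 and 454 CPM in arterial-like and venous-like cells against at most 22.2 CPM in the capillary types, and Ltbp4 at 961 and 422 CPM against at most 59.7 CPM. Lymphatic-like cells of the lung were the highest of its clusters for Eln (243 CPM), Fbln5 (307 CPM) and Col18a1 (136 CPM), and held Ltbp4 at 870 CPM. Sparc was highest in capillary-like cells, at up to 695 CPM, against 326 CPM in arterial-like and 288 CPM in venous-like cells. Capillary classes differed from each other in turn. Sparcl1 was at 299 to 405 CPM in the capillary-like clusters and at 18.2 CPM in aerocyte-like cells, Lama5 at 51.9 to 83.3 CPM against 0, and Mmrn2 at 81.5 to 114 CPM against 3.63 CPM. Aerocyte-like cells were the higher ones for Timp2, at 683 CPM against 252 to 296 CPM, for Lamc1, at 136 CPM against 14.8 to 31.5 CPM, and for Col4a2, at 463 CPM against 252 to 331 CPM. The 236 aerocyte-like cells held 550393 UMIs, so 0 UMIs of Lama5 allow up to 6.70 CPM at the exact 95% bound.

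Lymphatic-like cells, left out of the blood endothelial sums, had more UMIs of the laminin chain Lama4 than of Lama5. Lama4 UMIs numbered 85 against 1 of Lama5 in the aortic lymphatic-like cluster and 35 against 2 in the lung one. In the other aortic clusters the ratio of Lama4 to Lama5 UMIs ran from 0.133 to 2.23, the highest being venous-like. Nid2 was at 31.3 and 107 CPM in aortic and lung lymphatic-like cells, above every blood endothelial cluster of its tissue. Tgfbi (269 and 200 CPM) and Postn (104 and 57.1 CPM) were also highest there, against at most 44.3 and 8.42 CPM in blood endothelial clusters of the aorta; aortic macrophage-like cells, a cell type known to make Tgfbi, held 478 CPM of it. Timp3 was at 1753 and 1884 CPM. Mgp, at 309 CPM in the aortic lymphatic-like cells, and Bgn, at 144 CPM, lay under the macrophage-like levels of 386 and 534 CPM.

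**Figure D3:**
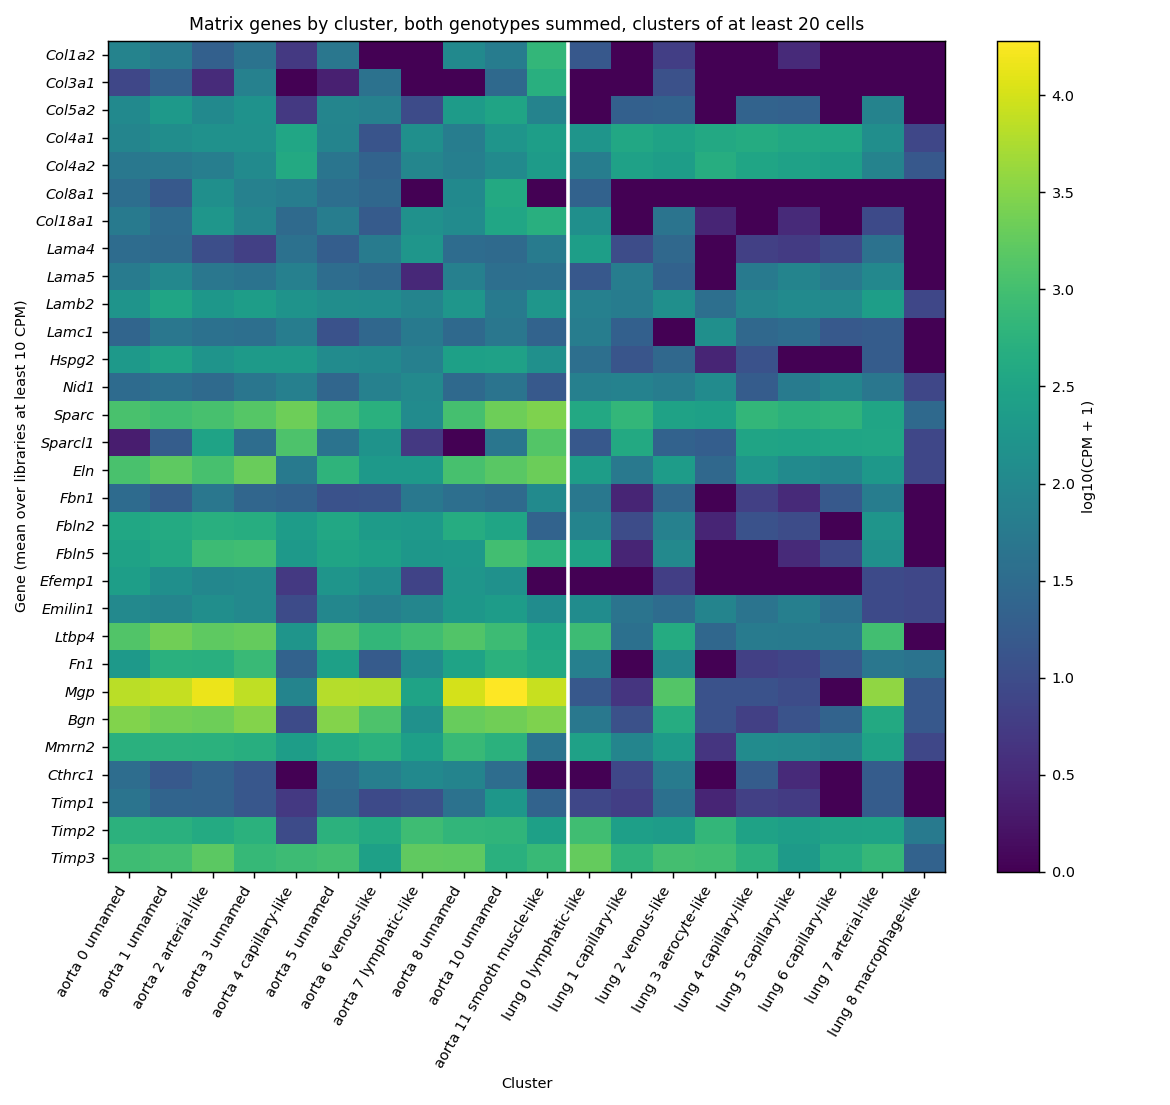
Level of each gene with a mean of at least 10 CPM in each cluster of at least 20 cells, as log10(CPM + 1), with both genotypes summed; aortic clusters are left of the white line. Mgp is bright in every aortic cluster except the capillary-like (84.2 CPM) and lymphatic-like (309 CPM) ones, and in the lung only in the arterial-like (3756 CPM) and venous-like (1383 CPM) clusters.

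Within like vessel types the ratios between the beds moved in both directions from those over all blood endothelial cells: some narrowed, some widened and some turned. The named classes leave out 1179 of 1688 aortic and 16 of 1172 lung blood endothelial cells, which had no vessel name, and aerocyte-like cells have no aortic class. This call between beds within a class was added after the data were seen. Members were called where the ratio over both genotypes was at least 2-fold and each genotype went the same way. Among capillary-like cells (163 aortic, 772 lung) 15 members passed the filter and 7 were higher in the aorta: Hspg2, Sparc, Sparcl1, Fbln2, Fbln5, Ltbp4 and Mmrn2. Over all genes that passed, 6.59% were so called and 15.2% were higher in the lung, where 1 member was. That member was Timp2, at 8.42 CPM in aortic and 265 CPM in lung capillary-like cells, a ratio of 0.0318 (0.00384 to 0.116). Fbln5 was 91.8-fold (29.6 to 461) and Hspg2 31.9-fold (15.5 to 73.6) higher in the aorta, beside 39.9-fold and 21.2-fold for Fbln5 and 22.7-fold and 26.6-fold for Hspg2 over all blood endothelial cells of wild-type and knockout. Sparcl1, with ratios of 0.657 and 0.469 over all cells, was higher in the aorta here, with a ratio interval of 3.02 to 4.06. Eln, at 54.8 and 92.9 CPM, had a ratio of 0.589 (0.305 to 1.05), and neither Mgp nor Bgn passed the filter in this class. Collagen IV no longer favoured the lung: Col4a1 stood at 345 and 374 CPM, a ratio of 0.924 (0.722 to 1.17), and Col4a2 at 400 and 286 CPM, a ratio of 1.40 (1.11 to 1.76).

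Among arterial-like cells (159 aortic, 69 lung) 22 members passed, 12 were higher in the aorta and 1, Lama5, in the lung, beside 13.9% and 10.6% of all genes. Mgp was 3.79-fold (3.45 to 4.18), Bgn 5.45-fold (4.09 to 7.43) and Eln 5.82-fold (3.83 to 9.27) higher in the aorta, well under the ratios over all blood endothelial cells, and Ltbp4 was 1.75-fold higher (1.44 to 2.15). The Mgp interval covers counting error only. Its lung arterial-like level differed between genotypes, and a single cell held much of the knockout lung Mgp, as given below. Lama5, at 48.5 against 97.8 CPM, rested on 20 and 12 UMIs with a ratio of 0.497 (0.231 to 1.11). Among venous-like cells (187 aortic, 79 lung) 19 passed, 9 were higher in the aorta and 3 in the lung, beside 6.85% and 9.95%. Here Col4a1 was at 12.1 CPM in the aorta and 294 CPM in the lung, Col4a2 at 22.2 and 240 CPM, and Timp3 at 272 and 1009 CPM. Col4a1 was thus 24.3-fold higher in the lung among venous-like cells, a wider gap than the 2.44-fold and 3.17-fold over all cells. Eln, at 206 and 230 CPM, had an interval that included 1 (ratio 0.895, 0.621 to 1.31). Among lymphatic-like cells (229 aortic, 61 lung) 24 passed, 4 (Hspg2, Fbln2, Mgp and Bgn) were higher in the aorta and 2 (Nid2 and Sparc) in the lung, beside 5.75% and 4.1%. For Mgp and Bgn the aortic levels, 309 and 144 CPM, lay below those of aortic macrophage-like cells, so these calls are not read as expression in lymphatic-like cells. Aortic capillary-like cells lay lower still, at 84.2 and 8.42 CPM, and the source of these UMIs was not tested. Timp3 (0.931, 0.810 to 1.07), Timp2 (0.938, 0.770 to 1.15) and Ltbp4 (1.05, 0.856 to 1.29) stood close to equal between lymphatic-like cells of the beds. Hspg2 and Fbln2 were called higher in the aorta in all 4 classes, although the interval of Hspg2 in lymphatic-like cells (2.05, 0.798 to 6.69) included 1.

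The paired collagen IV genes moved together across clusters. Over 18 clusters of at least 20 cells Pearson's r of their levels was 0.928 and Spearman's rho 0.899, a description over clusters that share libraries and depth. Levels spanned 12.1 to 434 CPM for Col4a1 and 22.2 to 463 CPM for Col4a2. The number of Col4a1 UMIs per Col4a2 UMI was 1.53 and 1.41 in the aorta and 1.13 and 1.14 in the lung, wild-type first. It ranged from 0.839 (0.696 to 1.01) in lung aerocyte-like cells and 0.863 (0.634 to 1.17) in aortic capillary-like cells to 2.67 (1.20 to 6.52) in lung lymphatic-like cells, over 16 clusters with at least 30 UMIs. Low ratios were not particular to capillary types. Lung capillary-like clusters 1, 4, 5 and 6 had 1.28 to 1.35, and unnamed aortic cluster 8 had 0.941 (0.445 to 1.98). Aortic venous-like cells, under the limit of 30 UMIs, had 0.545 (0.166 to 1.61).

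**Figure D4:**
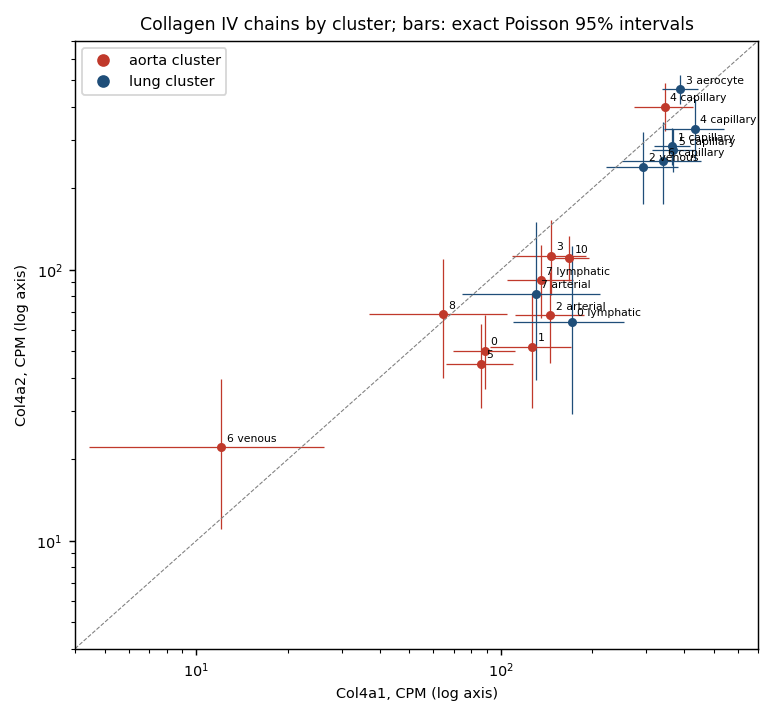
Level of Col4a1 against Col4a2 per cluster in CPM, both axes log, with exact Poisson 95% intervals and both genotypes summed; the dashed line marks equal levels. Aortic capillary-like cells (345 and 400 CPM) lie among the lung capillary clusters, and aortic venous-like cells (12.1 and 22.2 CPM) lie lowest.

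The Oct4 comparison asked whether matrix genes differ between knockout and wild-type endothelium. In the aorta 23 members passed the filter of 50 CPM and 30 UMIs over the 2 libraries, 2 were at least 1.5-fold higher in the knockout (2.83% of 2973 genes), 1 was at least 1.5-fold lower (2.62%), and 20 were within 1.5-fold. Their median log2 ratio was -0.02, beside 0.03 over all genes. Fibroblast markers differed as given above, by 1470 against 610 CPM, and cluster 10 held 174 of 1333 knockout and 14 of 355 wild-type cells, so the libraries also differ in composition.

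Ltbp4 was the member lower in the knockout aorta, at 1108 against 1699 CPM, a ratio of 0.652 (0.614 to 0.692) just past the 1.5-fold line. It was lower in 6 of the 7 clusters that had 20 or more cells of each genotype, in each of these beyond the counting interval. The knockout and wild-type levels were 1234 against 1780 CPM in cluster 0, 2087 against 2912 in cluster 1, 1554 against 2192 in arterial-like cells, 1537 against 2352 in cluster 3, 1074 against 1572 in cluster 5 and 648 against 879 in venous-like cells. In capillary-like cells it was at 192 and 132 CPM. The ratio was no longer past 1.5-fold in 6 of 20 alternatives, with the direction kept: 0.703 with marker-bearing cells left out, 0.716 with each cell given equal weight, 0.704 with cells thinned to 1000 UMIs, 0.704 with clusters weighted alike, 0.685 without cluster 3 and 0.699 without clusters 8 and 10. The 20 include changes of the gene filter, which cannot change the ratio of a single gene. In the lung Ltbp4 was at 113 against 132 CPM, a ratio of 0.852 (0.660 to 1.10).

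Col8a1 was higher in the knockout aorta, at 143 against 65.6 CPM, a ratio of 2.18 (1.66 to 2.92), and the gap turned on which clusters were summed. Without clusters 8 and 10, which hold 6 and 14 wild-type cells against 86 and 174 knockout cells, the ratio was 0.976, with clusters weighted alike it was 1.23, and with marker-bearing cells left out it was 1.08. Within arterial-like cells the level was 159 against 47.4 CPM, within cluster 0 it was 26.6 against 83.6 CPM, and within cluster 10 it was 412 against 239 CPM. Emilin1, at 139 against 72.5 CPM with a ratio of 1.92 (1.47 to 2.53), was higher in 6 of 7 clusters, beyond the interval in 1 of them (cluster 0, 115 against 41.8 CPM). Its ratio was 1.45 without clusters 8 and 10 and 1.40 with clusters weighted alike, under the 1.5-fold line.

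Other aortic members came close or lay below the filter. Mgp was 1.43-fold higher (1.39 to 1.47) in the knockout, 1.10-fold without clusters 8 and 10. Col5a2 was 1.48-fold higher (1.19 to 1.84), and 1.14-fold with clusters weighted alike. Lamb2, at 140 against 192 CPM, had a ratio of 0.729 (0.612 to 0.873). Below the filter, Timp1 was 3.30-fold higher (2.05 to 5.66), with 184 of its 261 knockout UMIs in cluster 10, and 1.26-fold without clusters 8 and 10. Lama4 was 2.48-fold (1.34 to 5.11) and Cthrc1 1.76-fold (1.07 to 3.05) higher, on 11 and 18 wild-type UMIs. Col3a1 had a ratio of 0.358 (0.230 to 0.563) on 55 and 35 UMIs, and 20% of the wild-type UMIs came from 1 cell. Eln (0.985, 0.918 to 1.06), Sparc (1.06, 0.993 to 1.13) and Hspg2 (1.11, 0.939 to 1.32) had intervals that included 1.

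In the lung 14 members passed, 1 was at least 1.5-fold higher in the knockout (2.66% of 3351 genes), 0 were lower (1.61%), and 13 were within 1.5-fold. The median log2 ratio was 0.09, beside 0.02 over all genes. The 1 was Mgp, at 429 against 267 CPM, a ratio of 1.61 (1.39 to 1.87), and 33.6% of its knockout UMIs came from 1 cell. The ratio was 1.16 once the top cell was left out on both sides, 1.14 with each cell given equal weight and 1.28 with cells thinned to 1000 UMIs, all under 1.5-fold. It turned below 1 over all kept cells (0.990) and with marker-bearing cells left out (0.958). The level was 6299 against 2336 CPM in arterial-like cells and 1088 against 1662 CPM in venous-like cells. Col4a1 (1.06, 0.915 to 1.22) and Col4a2 (1.05, 0.901 to 1.23), the pair higher in the lung, had intervals that included 1, as did Eln (0.916, 0.682 to 1.22), Timp2 (0.909, 0.787 to 1.05) and Nid1 (0.814, 0.584 to 1.12). Sparc had a ratio of 0.838 (0.739 to 0.949). Timp3 was at 685 against 597 CPM in the lung, a ratio of 1.15 (1.03 to 1.28), and at 821 against 977 CPM in the aorta, a ratio of 0.841 (0.779 to 0.908).

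**Figure D5:**
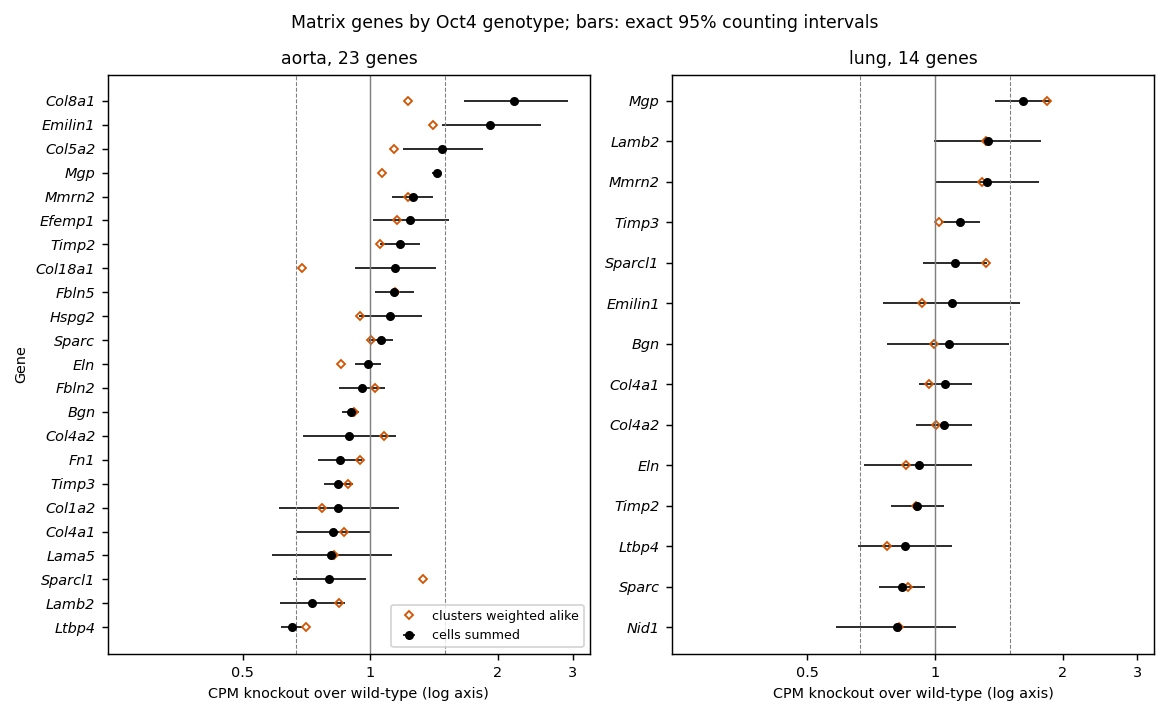
Ratio of CPM in knockout to wild-type blood endothelial cells for the genes that passed the filter, 23 in the aorta and 14 in the lung, on log axes, with exact 95% counting intervals; open diamonds weight clusters alike and dashed lines mark 1.5-fold. Col8a1 moves from 2.18 to 1.23 and Emilin1 from 1.92 to 1.40 when clusters are weighted alike, and Ltbp4 from 0.652 to 0.704.

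Other genes of matrix biology were followed in 5 lists. Of all genes that passed the tissue filter, 7.23% were higher in the aorta, 13.9% in the lung and 70.7% shared. Of 17 genes for collagen folding and crosslinking, 5 passed the tissue filter, 1 was higher in the aorta, 0 in the lung and 4 were shared, a shared part near that of all genes. The 1 was Lox, which crosslinks collagen and elastin, at 131 and 135 CPM in the aorta and 3.02 and 2.25 CPM in the lung. Serpinh1, the collagen chaperone HSP47, was at 190, 336, 170 and 248 CPM and P4hb, a subunit of prolyl 4-hydroxylase, at 140, 163, 102 and 122 CPM, both shared.

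Of 24 matrix receptors, 10 passed, 1 was higher in the aorta, 4 in the lung and 4 were shared, beside 7.23%, 13.9% and 70.7% of all genes. Itga5, the fibronectin receptor alpha chain, was at 100.1 and 121 CPM in the aorta and at 47.6 and 40.5 CPM in the lung, the same direction as Fn1. Itga1, a collagen receptor chain that binds collagen IV, was at 97.8 and 101 CPM in the aorta and at 427 and 494 CPM in the lung, the same direction as Col4a1 and Col4a2. Itga6, a laminin receptor chain, was at 44.9 and 30.9 CPM against 139 and 184 CPM. Cd93, the receptor of Mmrn2, was at 354 and 366 CPM in the aorta and 793 and 949 CPM in the lung, opposite to its ligand, and their common partner in adhesion Itgb1 was shared at 610, 661, 393 and 473 CPM.

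Of 27 matrix proteases and related genes, 9 passed, 4 were higher in the aorta, 0 in the lung and 5 were shared (all genes: 7.23%, 13.9% and 70.7%). Htra1, a serine protease, was at 385 and 411 CPM in the aorta and 3.78 and 3.38 CPM in the lung, Mmp2, a gelatinase, at 92.0 and 107 CPM against 3.02 and 5.63 CPM, and Ctsb at 394 and 519 CPM against 147 and 152 CPM. Ctsl (566, 465, 792 and 555 CPM) and Plat (156, 220, 291 and 363 CPM) were shared. Of 23 other basement membrane genes, 3 passed and 1 was higher in the aorta: Smoc1, a Sparc-related protein, at 247 and 253 CPM against 3.02 and 3.38 CPM. Egfl7, an endothelial matrix protein, was at 1254, 1172, 2469 and 2529 CPM, past 2-fold in knockout cells only, and Ntn1, netrin-1, at 196, 177, 70.2 and 124 CPM.

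Of 47 other matrix genes, 12 passed, 6 were higher in the aorta, 2 in the lung and 3 were shared. Against 7.23%, 13.9% and 70.7% of all genes, the part higher in the lung is near that of all genes. Mfap5 was at 270 and 259 CPM in the aorta and at 1.51 and 1.13 CPM in the lung, while its family member Mfap2 was at 10.4 and 17.8 CPM in the aorta and at 612 and 493 CPM in the lung. These microfibril-associated proteins were thus split by bed, Mfap2 being 59.1-fold higher in wild-type and 27.7-fold higher in knockout lung. Igfbp7, which is deposited in vessel basement membranes, was at 341, 466, 4060 and 3612 CPM, Thbs1, an adhesive glycoprotein, at 436, 355, 19.6 and 11.3 CPM and Ccn1, a matricellular protein, at 1905, 1386, 476 and 429 CPM.

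By genotype, 47 genes of these lists passed the filter in the aorta, of which 5 were at least 1.5-fold higher in the knockout and 4 lower, beside 2.83% and 2.62% of all genes. In the lung 29 passed, 1 was higher and 0 were lower, beside 2.66% and 1.61%. The genes called were picked for naming after their values were seen. In the aorta Serpinh1 was 1.77-fold (1.5 to 2.09), Sdc4 1.60-fold (1.15 to 2.28) and Spon1 1.69-fold (1.33 to 2.16) higher in the knockout. Dcn, at 781 against 75.9 CPM, and Lum, at 103 CPM against 0 UMIs (at least 29.7-fold), are themselves fibroblast markers of the list above. Ccn2 had a ratio of 0.426 (0.361 to 0.504) and Sdc2 of 0.581 (0.437 to 0.779). Col4a3 and Col4a4, chains of the other collagen IV network, were at 31.2 against 72.5 CPM and 38.8 against 66.7 CPM in the knockout and wild-type aorta, ratios of 0.430 (0.314 to 0.593) and 0.581 (0.426 to 0.801). In the lung Ntn1 was 1.76-fold higher (1.33 to 2.35).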

How the data were processed

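The authors deposited raw UMI counts, one matrix per library; Cell Ranger and mm10 are named in the submitters' processing notes, and the version and gene annotation were not given in the sources used here. Cell types deposited by the authors were not used here. Each of the 4 libraries had 31053 rows. Of the lung identifiers, 30934 matched GENCODE M21 and 119 did not, and 111 aortic symbols were updated by RefSeq synonyms; coordinates are those of GENCODE M21, 1-based, for the whole gene. The filter of at least 500 UMIs and at most 15% mitochondrial UMIs left out 45, 54, 25 and 21 barcodes (aorta wild-type and knockout, then lung wild-type and knockout). No correction for free RNA was made. Scrublet in scanpy 1.11.5 called 4, 4, 6 and 7 doublets, which were kept in the main values and left out as an alternative.

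Cells were clustered per tissue with scanpy on log counts scaled to 10000, 2000 variable genes without the matrix lists, 30 principal components, 15 neighbours and Leiden resolution 1, and named from marker lists. The scoring rule was set after the data were seen. A vessel name needed 3 markers of a class among the 10 leading genes, more than of any other vessel class. No other vessel class could then have over 1.5 times its detection. Where no class had 3 leading markers, its detection had to be at least 1.5 times that of every other vessel class. Either way 3 of its markers had to be found in at least 25% of cells. Other endothelial clusters got no name. Rebuilt names can differ from the study's. UMIs were summed over cells with numpy 2.4.6 and pandas 2.3.3, leaving out lymphatic-like and non-endothelial clusters, and intervals were computed with scipy 1.17.1: exact Poisson for CPM, exact conditional for ratios. A value of 0 was set to a floor of 3 counts, which is 3.45, 0.786, 2.27 and 3.38 CPM in the libraries named above in that order. Samples were grouped by their titles. Tissues were compared within genotype at 2-fold and genotypes within tissue at 1.5-fold, with no test, since each group has 1 library. Every member was named, and of each other list the 2 genes with the highest mean and those furthest apart between tissues in each direction. Cell filters, doublets, the cells summed, weights, scaling, thinning, gene filters and clustering were varied. The members and lists were chosen with earlier results of these data known. The scripts were checked on simulated data. Promoter stretches are from RefSeq on GRCm38.p6; 11 members had none.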

Additional observations from a re-analysis of the deposited data

Results flagged for a closer look

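Timp3 was picked out because its knockout to wild-type ratio lay below 1 in the aorta, at 0.841 (95% counting interval 0.779 to 0.908), and above 1 in the lung, at 1.15 (1.03 to 1.28), with neither interval including 1. The difference between the tissues was not tested, since each group is 1 library. In the aorta Timp3 was lower in the knockout in 5 of 7 blood endothelial clusters, beyond the interval in 4 of them, and in the lung it was higher in 4 of 7, beyond the interval in 2. With clusters weighted alike the ratios were 0.887 and 1.02. Fibroblast markers stood at 1470 against 610 CPM in knockout and wild-type aorta and epithelial markers at 453 against 55.9 CPM in knockout and wild-type lung; their part in the ratios was not tested. The gene Syn3 overlaps an exon of Timp3 on the opposite strand.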

How the results depend on the processing

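No paired analysis was possible because each group is 1 library and the labels give no replicate numbers. Over all alternatives, counts of members stayed within 1.5 times the main value in 117 cases and moved further in 18. Single ratios stayed within their interval in 2222 cases and moved in 183, and 3 more, of members called in the main values, changed direction. For members not called, a change of direction was not counted apart. Among these, the aortic genotype ratio of Sparc, 1.06 in the main values, fell to 0.855, and that of Eln, 0.985, rose to 1.37. The gene filters cannot change a single ratio, so their cases stay by construction. Members at least 2-fold higher in the aorta numbered 14, and 22 with no filter on low genes, where 6.13% of all genes were so called. Those higher in the lung numbered 2, and 1 (Col4a2) with cells thinned to 1000 UMIs, beside 13.0% of all genes. Those under 2-fold numbered 4, and 2 at a mean of at least 100 CPM and 7 with no filter. Members apart by genotype in the aorta numbered 3, and 7 at a mean of at least 20 CPM, 10 with no filter, 0 with clusters weighted alike and 1 without aortic clusters 8 and 10, where Col18a1 was lower and Col8a1 turned to 0.976. Of all genes, 4.90% were higher and 5.07% lower in the knockout aorta at 20 CPM. With no filter these shares were 9.71% and 10.1%, beside 10 of 37 members, and without clusters 8 and 10 they were 2.12% and 2.25%. In the lung, members apart by genotype numbered 1, and 2 over all kept cells and at 20 CPM, 7 with no filter, and 0 with marker-bearing cells left out, with the mean of per-cell CPM, without the highest cell of each library and with thinning. Of all genes, 1.88% were higher and 3.04% lower in the knockout lung over all kept cells, and 5.63% and 3.88% at 20 CPM. With no filter these shares were 9.46% and 9.12%, beside 7 of 35 members. Mgp in the lung turned to 0.990 over all kept cells and to 0.958 with marker-bearing cells left out. For vessel types, arterial-like members higher in the lung numbered 1, and 0 at Leiden resolution 2 and with Scrublet calls left out; lymphatic-like ones numbered 2, and 1 at 1000 UMIs and 10% mitochondrial UMIs. No arterial-like class was found in both tissues under that stricter filter, with barcodes as deposited, at Leiden resolution 0.5 or with matrix genes kept in the clustering, so these gave no value. The cause of these shifts was not tested, except that gene filters change how many genes are counted. Leaving out aortic cluster 3 or clusters 8 and 10 was chosen after the data were seen. Depth limits genes under the 50 CPM filter, most in the wild-type aorta, where 3 counts are 3.45 CPM, and in the knockout lung, where they are 3.38 CPM.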

Other observations

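Cells of other types sorted with the endothelium gave a reading of matrix genes outside it. The 20 smooth muscle-like cells of the aorta carried Eln at 2110 CPM, Mgp at 8205 CPM, Bgn at 2885 CPM, Sparcl1 at 1343 CPM and Postn at 635 CPM, and no UMI of Col8a1. The 14 fibroblast-like cells of the lung carried Mgp at 5236 CPM, Bgn at 3142 CPM, Sparcl1 at 1945 CPM and Ltbp4 at 1272 CPM, while Col8a1 and Col18a1 had 1 UMI each and Fbln2 and Mmrn2 had 0. Of these 14 cells, 13 came from the wild-type lung.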
